A study of Mus musculus with 24 samples.

Results

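CD4+ T cells that had been in culture for 24 h were compared with resting CD4+ T cells, which set cells at the blast stage, close to their entry into the first division, against the cells they came from. The comparison took 5 of the 24 libraries of the series: 2 of resting cells and 3 of 24 h cultures, 1 for each of the conditions Th0, Th1 and Th2. It was made across all genes, and lists of genes of other spleen cells were counted apart from all remaining genes. Whether the remaining transcripts came from T cells was not tested. All 5 libraries came from wildtype adult C57BL/6 spleen, from which CD4+ cells were enriched with magnetic beads that remove the other cells. The resting cells were not stimulated. Th0 cultures received anti-CD3e and anti-CD28, antibodies that trigger the T cell receptor and its costimulator. Th1 cultures received anti-IL-4 and recombinant IL-12 in addition, and Th2 cultures received antibodies to IL-12 and IFN-γ together with IL-4. The cells came from a single pool of mice and each culture was sequenced once. The p-values below therefore measure only the spread between libraries, taken over the 20 libraries of the time course, which may be technical. The 3 skewing conditions served as the libraries of the 24 h and every other culture time point, and what differs between them is part of that spread. The resting libraries are tagged differently in their labels from the cultures, and the effects of a separate preparation and of activation cannot be told apart. The labels describe purified CD4+ cells, whereas the methods of the study name naive cells.

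A resting T cell is a small cell that makes little protein and is held out of the cell cycle by inhibitors and by transcription factors of quiescence. Signals from the T cell receptor and CD28 first induce early transcription factors and cytokines such as IL-2. Under Myc and mTORC1 the cell then builds ribosomes, takes up amino acids and glucose, and grows into a blast before it copies its DNA and divides.

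The deposited values are RPKM, reads scaled by transcript length and by the mapped reads of the library, so that levels are given per length and relative to the other transcripts of the library. The resting libraries had 19759081 and 23541816 mapped reads, recovered from the steps of the values, and the Th0, Th1 and Th2 libraries at 24 h had 26827343, 27659590 and 25579538. Differences were tested with limma on log2(RPKM + 0.5) over the 20 libraries of the time course, for the 10897 genes whose mean was 1 RPKM or more. A gene is said to have risen or fallen where the adjusted p was under 0.05 and the change at least 2-fold. A log2 change of a low gene is understated by the added 0.5.

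Of the 10897 genes tested, 1389 rose at 24 h against resting cells (12.7%) and 1891 fell (17.4%). Over all these genes, those of other spleen cells included, the changes were larger among falls than among rises. The falls include 170 genes of the other-cell lists, and the sizes outside these lists were not summarised. The median log2 change of the genes that rose was 1.4, with 222 at least 4-fold and 10 at least 16-fold, and that of the genes that fell was -1.66, with 690 at least 4-fold and 151 at least 16-fold. Outside the lists of other spleen cells, 1387 of 10707 genes rose and 1721 fell. All 3280 called genes had resting and 24 h values that did not overlap, as did 80.6% of the genes tested. The SD of the log2 difference over genes was 0.18 between the resting libraries, 0.24 between Th0 and Th1 at 24 h, 0.41 between Th0 and Th2 and 0.44 between Th1 and Th2. Th2 therefore stood further from the other cultures than these from each other. The called genes had a median range between the 3 cultures of 0.38 on the log2 scale, beside a median absolute change of 1.52, and for 21 of them the range exceeded the change.

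How many called genes had risen and how many had fallen depended on the scaling. Of the called genes, 42.3% rose as deposited, 52.4% under quantile normalization and 33.6% when the libraries were rescaled without the genes of other cells. The median log2 change of all genes tested stood at -0.04 as deposited, at 0.11 under quantile normalization, at 0.10 after scaling by the median of ratios and at -0.17 when rescaled. The medians of gene lists below are to be read against the -0.04, and their counts against the 12.7% of all genes that rose and the 17.4% that fell.

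**Figure D1:**
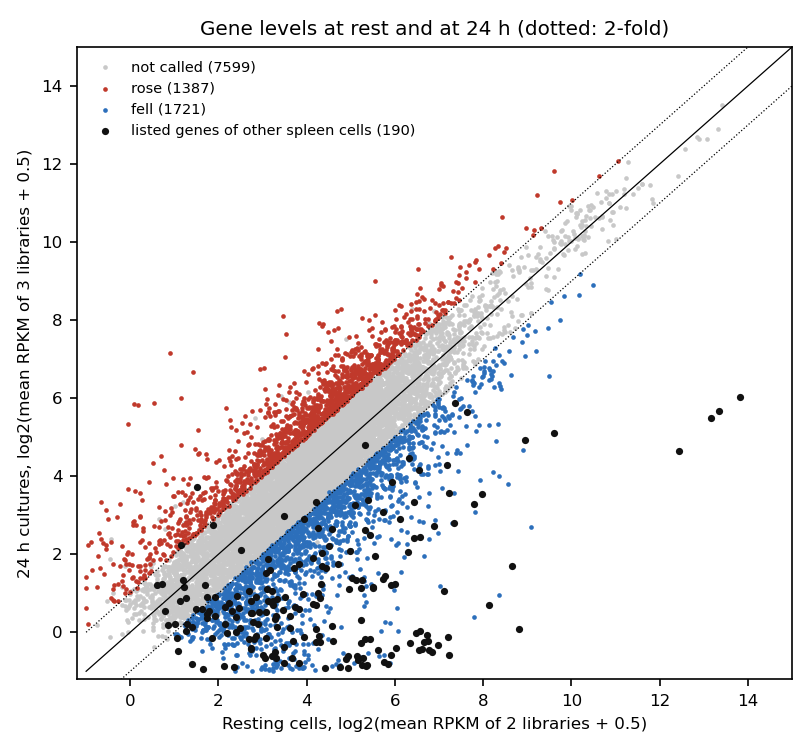
Each point is 1 of the 10897 genes tested, with log2 of the mean RPKM plus 0.5 of the 2 resting libraries on the x axis and of the 3 libraries at 24 h on the y axis; dotted lines mark 2-fold. Genes that rose (1387, red) and fell (1721, blue) lie on both sides over the whole range of levels, and the 190 listed genes of other spleen cells (black) lie mostly below the line, the haemoglobin genes furthest to the right.

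Transcripts of other spleen cells were set aside first. Their 190 tested genes took 7.68% and 8.33% of the summed RPKM in the resting libraries and 0.138%, 0.123% and 0.127% in Th0, Th1 and Th2 at 24 h. Of these genes 170 fell and 2 rose. In bulk RNA, fewer cells of a type and less RNA per cell cannot be told apart. The largest share was that of red cells and their precursors: all 35 tested of the 47 listed genes fell, with a median of -6.22, and their summed RPKM went from 40883 and 44465 to 261.1, 200.8 and 271.0. Haemoglobin transcripts alone were 6.25% and 6.86% of the summed RPKM at rest and between 0.0233% and 0.0333% at 24 h. Hba-a1 and Hba-a2, and likewise the beta chains, are near-identical copies, and their split is uncertain. Of the red cell genes, the minor globin Hbq1a, named after its values were seen, was at 2.43 and 1.69 RPKM at rest and listed at 0 in all 3 cultures.

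Genes of macrophages and monocytes followed. Of the 61 tested of 94 listed, 59 fell, with a median of -3.94, and their summed RPKM went from 2675 and 2728 to 205.5, 210.2 and 161.1. Hmox1, the haem oxygenase of red pulp macrophages, was at 253 and 251 RPKM at rest and at 12.0, 12.6 and 9.02 at 24 h. B cell and plasma cell genes fell in 40 of 45 tested of 62 listed, with a median of -2.52, from a sum of 2693 and 2774 RPKM to 284.7, 217.6 and 285.6. Jchain, the joining chain of secreted antibodies, kept 35.9, 26.4 and 39.2 RPKM of 784 and 784. NK cell and CD8 T cell genes fell in 13 of 16, with a median of -2.08, from 188.7 and 181.3 to 32.06, 50.32 and 44.56 RPKM.

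The smaller lists gave few tested genes. Granulocyte genes fell in 11 of 15 tested of 48 listed, a count that was 5 under quantile normalization, 7 with a pseudocount of 1 and 7 and 6 without resting replicate 1 and 2. Dendritic cell genes fell in 3 of 4 tested of 17. Platelet genes fell in 9 of 11 tested of 25, and Pdgfb, a growth factor subunit on that list named after its values were seen, rose. Of 52 listed stroma and endothelium genes 3 were tested, and Egfl7 rose, from 1.81 and 1.61 RPKM to 4.62, 3.57 and 4.34, a call that was lost with pseudocounts of 0.1 and 1, when rescaled and without resting replicate 1 (1.14) or 2 (1.01). As a check of the label, the 11 tested of 14 listed T cell genes had a median of -0.59. None changed 2-fold, and 8 had a limma adjusted p under 0.05, 6 of them lower and 2 higher at 24 h, with a list sum of 2872 and 2917 RPKM at rest and 2228, 2296 and 1919 at 24 h. Cd3e, the receptor's CD3 epsilon chain, was at 187 and 194 RPKM at rest and at 141, 124 and 101 at 24 h, and Cd4 was at 328 and 326 against 215, 227 and 166. All these values were above 100 RPKM, at rest and in culture.

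The gene with the largest rise was Il2, the growth factor that activated T cells make for themselves. Its level was 1.37 and 1.37 RPKM in the resting libraries and 104, 122 and 200 in Th0, Th1 and Th2, a log2 change of 6.19 ± 0.52 (SE, limma adjusted p = 4.47e-08). All 3 cultures were far above rest, with Th2 the highest. Ccl1, a chemokine for CCR8, rose by 5.77 and Ccl22, a chemokine for CCR4, by 5.13 on the log2 scale, and Ccr8 itself rose by 3.55. Crabp2, a retinoic acid binding protein, went from 0.861 and 0.403 RPKM to 44.2, 35.8 and 89.8, and Bcat1, the cytosolic branched-chain amino acid transaminase, from 1.29 and 0.604 to 56.8, 71.4 and 47.7. Lad1, the anchoring filament protein ladinin, went from 1.86 and 2.47 RPKM to 100, 64.8 and 140. Pros1, the anticoagulant protein S, rose by 4.21 ± 1.34 (limma adjusted p = 0.0115) with 53.2, 9.54 and 127 RPKM in the cultures, and this call was lost without Th2 (3.39) or without resting replicate 2 (4.06).

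Most of the tested cytokine genes rose. Of 34 listed cytokines and chemokines of activated T cells 30 were tested, of which 18 rose and 2 fell, beside the 12.7% and 17.4% of all genes, and the median was 1.77. Lta, lymphotoxin alpha, was at 10.7 and 10.9 RPKM at rest and at 135, 224 and 40.9 at 24 h (log2 change 3.26 ± 0.64, limma adjusted p = 3.31e-04). Il3, Il13, Xcl1, Ccl4, Tnf and Tnfsf11 also rose, by 4.02, 3.56, 3.48, 3.14, 2.26 and 3.09 on the log2 scale, and were named after their values were seen. Ifng was at 29.7 and 28.5 RPKM at rest and at 94.5, 388 and 66.2 in Th0, Th1 and Th2. Every culture was above rest, but the log2 change of 2.19 ± 1.34 had a limma adjusted p of 0.161. That error came from the whole time course, where the cultures also lay apart. At 8 h Ifng was at 19.1, 414 and 62.6 RPKM in Th0, Th1 and Th2. The threshold was passed only when the fit was limited to the libraries compared. Ccl5, a chemokine of memory and effector cells, fell from 159 and 163 RPKM to 13.2, 14.1 and 6.97. Ltb fell by 1.01 on the log2 scale, a call that was lost without Th2 (-0.76), without resting replicate 1 (-1.04) or 2 (-0.98), and under median-of-ratios or upper-quartile scaling.

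Receptors of activated T cells moved both ways. Of 40 listed, 39 were tested, 13 rose, 7 fell and the median was 0.50. The share that rose was 33.3%, beside 12.7% of all genes, and the share that fell 17.9%, near the 17.4% of all genes. Il2ra, the alpha chain of the IL-2 receptor, was at 19.7 and 18.1 RPKM at rest and at 256, 277 and 192 at 24 h (3.63 ± 0.30, limma adjusted p = 3.87e-08), and Tnfrsf4, the costimulatory receptor OX40, went from 25 and 28.9 to 291, 344 and 300. The highest culture was 1.44 times the lowest for Il2ra and 1.18 times for Tnfrsf4. Il7r, the receptor for the survival cytokine IL-7, fell from 108 and 107 RPKM to 26.2, 16.8 and 13.3, and Il18r1, an IL-18 receptor chain, from 27.2 and 25.1 to 3.48, 6.58 and 1.70. The transferrin receptor Tfrc was at 183 and 175 RPKM at rest and at 191, 216 and 323 at 24 h, with a limma adjusted p of 0.181. Between these times it was lower, at 65.7, 86.2 and 126 RPKM in Th0, Th1 and Th2 at 4 h. The part of other spleen cells in the resting level of Tfrc was not tested. Cd69, an early activation antigen, was at 187 and 179 RPKM at rest against 194, 174 and 187 at 24 h. The resting level of Cd69 lay within the range of the cultures.

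Of 43 listed immediate-early and activation transcription factors 42 were tested, 13 rose, 11 fell and the median was 0.48. Irf4, which scales with the strength of receptor signalling, went from 10.4 and 10.5 RPKM to 256, 272 and 295 (4.65 ± 0.24, limma adjusted p = 9.63e-11), and Nr4a3, an orphan nuclear receptor induced by the T cell receptor, from 7.09 and 8.23 to 123, 124 and 77.5. Fos and Fosb, subunits of AP-1, fell. Fos was at 531 and 551 RPKM at rest and at 5.95, 5.64 and 6.50 at 24 h (-6.38 ± 0.24, limma adjusted p = 1.20e-12), and Fosb went from 65.3 and 66.1 to 1.21, 0.896 and 0.990. Hspa1a and Hspa1b, the inducible HSP70 genes, were at 218 and 221 and at 322 and 330 RPKM at rest and at no more than 1.94 at 24 h, the largest falls outside the lists of other cells (-7.40 and -7.42). The split of reads between these near-identical genes is uncertain. At 4 h Fos was already at 28.8, 27.5 and 42.1 RPKM and Hspa1b at 22.4, 18.4 and 27.6. Batf, an AP-1 partner of Irf4, was at 22.7 and 20.8 RPKM at rest and at 32.2, 35.2 and 69.3 at 24 h, a log2 change of 0.96, just under 2-fold. It passed that limit without Th0 (1.17), without Th1 (1.105) and under median-of-ratios and upper-quartile scaling (1.10 and 1.03).

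**Figure D2:**
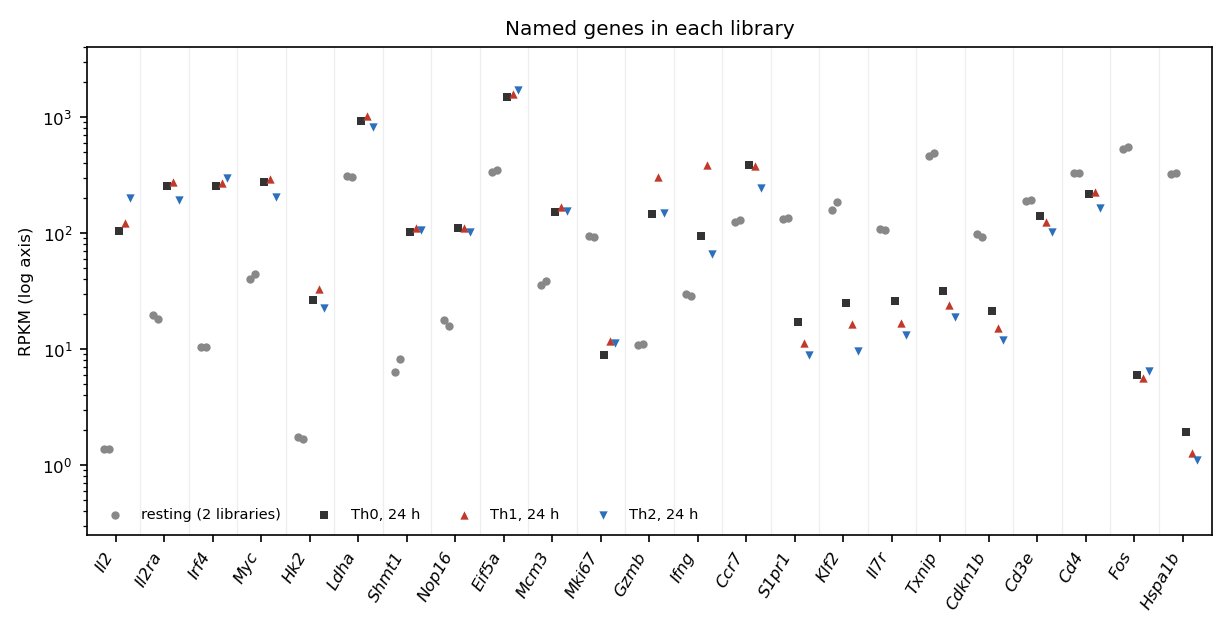
RPKM on a log axis of 23 genes, 1 point a library: both resting libraries (grey circles) and the Th0 (black squares), Th1 (red triangles) and Th2 (blue inverted triangles) cultures at 24 h. Il2 to Mcm3 lie above their resting points in all 3 cultures, Mki67 lies below, and Fos and Hspa1b lie the furthest below.

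The machinery that makes ribosomes had the largest share of members that rose among the lists described. Of 75 genes of ribosome biogenesis, all tested, 70 rose and none fell, the median was 1.58 and the summed RPKM went from 3355 and 3232 to 11506, 11538 and 12874. Nop16, a nucleolar protein, was at 17.97 and 15.8 RPKM at rest and at 110, 110 and 102 at 24 h (2.64 ± 0.32, limma adjusted p = 3.25e-06), and Nhp2, a subunit of the RNA-modifying H/ACA particles, went from 37.4 and 31.0 to 171, 174 and 230. Ncl, nucleolin, rose by 2.15 and Npm1, nucleophosmin, by 2.18 on the log2 scale, though the processed copies of Npm1 in the genome make its reads uncertain. Nearly all of the rise was early: 68 of the 70 genes passed the midpoint of their log2 change between 4 h and 8 h, and between 12 h and 24 h none rose or fell. The mRNAs of the cytosolic ribosomal proteins themselves stayed near the median of all genes. Of 83 listed 80 were tested, 1 rose, none fell and the median was 0.20, with 16.7% and 16.2% of the summed RPKM at rest and 18.4%, 17.3% and 19.7% at 24 h. The one that rose was Rps27l, a p53 target related to Rps27, by 1.66. Genes of the mitochondrial ribosome rose in 36 of 76, with a median of 0.98, among them Mrps6, from 20.3 and 19.1 RPKM to 116, 116 and 123.

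Myc, a transcription factor of cell growth, was at 40.3 and 43.9 RPKM at rest and at 273, 294 and 206 at 24 h (2.58 ± 0.41, limma adjusted p = 4.29e-05). Of the 12 listed genes of its network 10 were tested, 1 rose and 3 fell, with a median of -0.59. Mxd3 and Mxd4, which compete with Myc for Max, fell, Mxd4 from 34.2 and 42.3 RPKM to 11.8, 8.44 and 13.03. Myc was the member that rose.

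Translation factors rose in 23 of 48 tested of 49 listed and fell in 2, with a median of 0.89. Eif5a, which relieves stalled ribosomes, was at 334 and 351 RPKM at rest and at 1485, 1579 and 1710 at 24 h (2.21 ± 0.28, limma adjusted p = 4.51e-06), and Eef1e1, a partner of tRNA synthetases, rose by 2.18. The members that fell were brakes on translation: Eef2k, the kinase that inactivates elongation factor 2, went from 14.4 and 13.7 RPKM to 4.98, 5.66 and 3.90, and Pdcd4, an inhibitor of eIF4A, from 136 and 129 to 56.6, 39.5 and 62.7. Cytosolic tRNA synthetases rose in 15 of 22 with a median of 1.16, for example Rars by 1.82 and Iars by 1.76 on the log2 scale.

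Chaperone and proteasome genes rose in most cases. Of 33 chaperones 24 rose and 1 fell, with a median of 1.32. The mitochondrial chaperonin Hspd1 went from 157 and 150 RPKM to 828, 826 and 702 (2.35 ± 0.32, limma adjusted p = 9.23e-06), and Hspa9, the HSP70 of mitochondria, from 90.9 and 94.7 to 349, 374 and 357. Dnajb1, a heat shock cochaperone, fell from 152 and 151 RPKM to 40.5, 38.7 and 38.0. Of 32 genes of the constitutive proteasome 27 rose and none fell, with a median of 1.29, among them Psma5, from 50.8 and 47.6 RPKM to 162, 163 and 221, and 26 of the 27 passed their midpoint between 4 h and 8 h. Folding genes of the endoplasmic reticulum rose in 4 of 24 and fell in 3, with a median of 0.36, and the 4 became 2 without Th1, under quantile normalization and when rescaled. Dnajb9, a target of the unfolded protein response, fell from 67.4 and 66.2 RPKM to 8.18, 10.2 and 10.8.

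**Figure D3:**
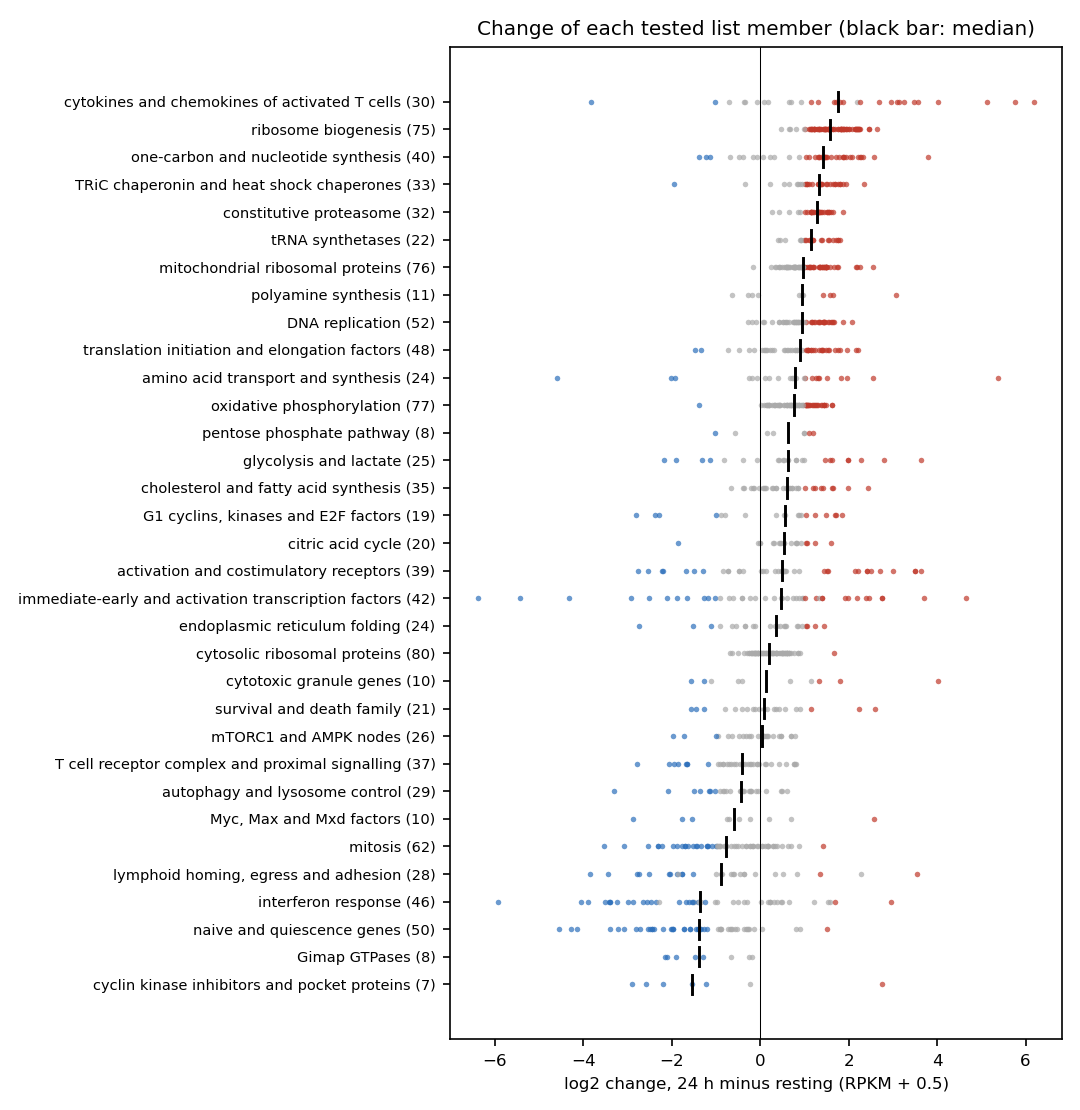
Log2 change from rest to 24 h, on RPKM + 0.5, of every tested member of 33 gene lists, 1 point a gene, with the number of members in brackets and the median as a black bar; red points rose, blue points fell and grey points did not pass. The ribosome biogenesis, chaperone and proteasome lists are almost wholly to the right of 0, the cytosolic ribosomal proteins lie close to 0, and the naive, Gimap and kinase inhibitor lists lie to the left.

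Genes of amino acid supply moved unevenly. Of 26 listed genes of amino acid transport and synthesis 24 were tested, 10 rose, 3 fell and the median was 0.78. Slc7a5, the large neutral amino acid carrier, was at 24.96 and 31.3 RPKM at rest and at 67.2, 83.7 and 59.4 at 24 h (1.30 ± 0.32, limma adjusted p = 0.00208), and Psat1, of serine synthesis, went from 18.7 and 18.5 to 105, 111 and 121. Bcat1, given above, belongs here too. Asns, asparagine synthetase, fell from 18.2 and 17.3 RPKM to 3.29, 4.97 and 4.01, and Slc43a1, a neutral amino acid carrier, from 38.3 and 42.1 to 1.19, 1.47 and 0.952. Asns was already at 5.50, 5.79 and 7.60 RPKM in Th0, Th1 and Th2 at 4 h. Slc43a1 was at 19.2, 16.7 and 21.0 RPKM at 4 h and at 2.33, 1.53 and 2.30 at 12 h. Whether its resting transcripts came from other spleen cells was not tested.

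One-carbon and nucleotide synthesis had the third-highest list median among the pathways plotted. Of 41 listed 40 were tested, 27 rose, 3 fell and the median was 1.41. Shmt1, the cytosolic serine hydroxymethyltransferase, went from 6.30 and 8.18 RPKM to 103, 111 and 106 (3.8 ± 0.40, limma adjusted p = 6.35e-07), and Shmt2, its mitochondrial counterpart, from 24.5 and 26.0 to 155, 165 and 137. The highest culture was 1.08 times the lowest for Shmt1. Rrm2, the small subunit of ribonucleotide reductase, and Dck, the deoxycytidine salvage kinase, fell instead, Rrm2 from 139 and 135 RPKM to 45.5, 57.02 and 55.7. At 12 h Rrm2 was lower still, at 8.76, 7.82 and 7.37 RPKM, and the part of other spleen cells in its resting level was not tested. Polyamine genes rose in 4 of 11, with a median of 0.95, and in 7 under median-of-ratios scaling. Srm, spermidine synthase, rose by 3.08 on the log2 scale, while Odc1, ornithine decarboxylase, was at 134 and 137 RPKM at rest and at 252, 271 and 228 at 24 h, a log2 change of 0.88.

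Glycolysis genes moved in both directions. Of 26 listed 25 were tested, 8 rose, 4 fell and the median was 0.63, while the summed RPKM went from 2281 and 2340 to 6366, 6899 and 6119. The genes that rose included Hk2, the inducible hexokinase, from 1.74 and 1.70 RPKM to 26.2, 32.8 and 22.5 (3.63 ± 0.37, limma adjusted p = 4.68e-07), Pgam1, phosphoglycerate mutase, from 38.5 and 37.0 to 264, 294 and 237, and Ldha, lactate dehydrogenase, from 308 and 305 to 930, 1010 and 811. Gapdh rose by 1.99 on the log2 scale, and its reads are uncertain, since it has many processed copies. Those that fell included Hk3, another hexokinase, and Pdk1, a kinase that inhibits pyruvate dehydrogenase, from 83.0 and 87.5 RPKM to 24.0, 22.0 and 21.7. Hk3 was low, at 3.97 and 4.96 RPKM at rest and at 0.951, 1.01 and 1.14 in Th0, Th1 and Th2 at 4 h. Whether its resting transcripts came from other spleen cells was not tested. Slc2a1, the glucose carrier GLUT1, was at 13.9 and 15.5 RPKM at rest and at 28.6, 33.6 and 24.5 at 24 h, a log2 change of 0.94 that passed 2-fold without Th2 (1.05), without resting replicate 2 (1.01) and under quantile, median-of-ratios and upper-quartile scaling (1.06, 1.08 and 1.00).

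Genes of other energy pathways rose in part. Of 8 pentose phosphate genes 2 rose and 1 fell, with a median of 0.64, and 4 rose without Th0, without resting replicate 2, and under median-of-ratios and upper-quartile scaling, while 1 rose when rescaled. Pgd, which makes NADPH, went from 44.3 and 39.2 RPKM to 103, 97.1 and 90.2. Of 77 genes of oxidative phosphorylation 25 rose and 1 fell, with a median of 0.76, and the 25 became 13 under quantile normalization and 15 when rescaled. Atp5g1, of the ATP synthase ring, rose from 35.5 and 43.6 RPKM to 118, 120 and 131, and Cox7a2l, an assembly factor of respiratory supercomplexes, fell from 258 and 260 to 103, 96.7 and 98.5. Of 20 tested of 21 listed genes of the citric acid cycle 4 rose and 1 fell, with a median of 0.55, and 2 rose under quantile normalization and when rescaled. Of 35 tested of 38 listed genes of cholesterol and fatty acid synthesis 9 rose and none fell, with a median of 0.60, Idi1, of isoprenoid synthesis, from 23.1 and 23.0 RPKM to 120, 113 and 151.

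Genes of DNA replication rose late. Of 52 listed, all tested, 24 rose and none fell, the median was 0.95 and the summed RPKM went from 1688 and 1694 to 3000, 3299 and 3845. Mcm3, of the helicase that opens the origins, was at 35.8 and 38.5 RPKM at rest and at 152, 168 and 155 at 24 h (2.08 ± 0.21, limma adjusted p = 4.21e-07), and Mcm5, of the same ring, went from 38.5 and 39.5 to 132, 148 and 152. Pcna, the clamp of the replicative polymerases, was at 318 and 302 RPKM at rest and at 395, 434 and 680, a log2 change of 0.66 (limma adjusted p = 0.00824) that was under 2-fold. These genes moved late: 16 of the 24 passed the midpoint of their change between 16 h and 20 h and 6 between 20 h and 24 h. Over all 1387 genes that rose outside the lists of other cells, 62 and 16 did so. The midpoints are measured from rest, and the replication list had first gone lower. Its summed RPKM had a median of 1691 at rest, 1202 at 4 h and 1177 at 8 h. The part of other spleen cells in its resting level was not tested.

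The genes of mitosis took another course. Of 62 listed, all tested, 1 rose, 21 fell and the median was -0.77. Mki67, the Ki-67 antigen of cycling cells, was at 94.0 and 91.8 RPKM at rest and at 8.93, 11.7 and 11.3 at 24 h (-3.08 ± 0.20, limma adjusted p = 1.47e-09), and Ccnb2, a mitotic cyclin, went from 30.7 and 30.7 to 1.98, 2.21 and 2.39. Cks1b, a subunit of cyclin kinases, was the gene that rose, from 22.9 and 22.8 RPKM to 52.8, 57.8 and 76.6. Cdk1, the mitotic kinase, was at 39.6 and 32.9 RPKM at rest and at 25.2, 25.1 and 45.1 at 24 h (limma adjusted p = 0.505), with the resting levels inside the range of the cultures.

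Between rest and 24 h the summed level of the mitosis list went down and came up again. The summed RPKM of the mitosis list had a median of 1681 at rest, 1068 at 4 h, 521.9 at 12 h and 1080 at 24 h. A comparison of 24 h with 12 h, which was added after the data were seen and shares the 24 h libraries, has no resting library in it. In it 340 of 10897 genes rose (3.12%) and 210 fell (1.93%), while 47 of the 62 mitosis genes and 42 of the 52 replication genes rose and none of either list fell, with medians of 1.55 and 1.51. Mki67 rose by 1.22 (limma adjusted p = 1.20e-04), from 4.88, 4.10 and 3.87 RPKM at 12 h, and Cdk1 by 2.79 (limma adjusted p = 1.25e-06). Top2a, the topoisomerase that untangles chromosomes, and Aurkb, a mitotic kinase, rose by 2.60 and 2.62 and Rrm2 by 2.65. Top2a and Aurkb were named after their values were seen. The resting level of the mitosis genes stood beside the resting level of the red cell genes, whose list includes genes of dividing precursors: the summed RPKM of that list had a median of 42670 at rest, 35130 at 4 h, 5455 at 12 h and 261.1 at 24 h. The part of those cells in the resting level of the mitosis genes was not tested.

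**Figure D4:**
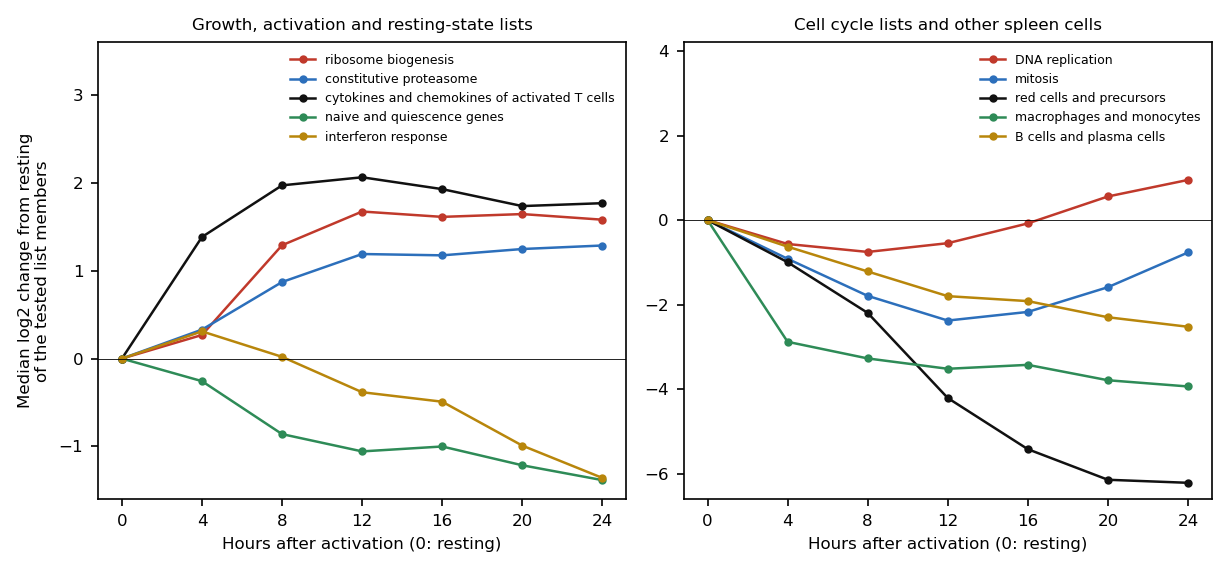
Median log2 change from the mean of the resting libraries, on RPKM + 0.5, of the tested members of 10 lists at 0 h (resting) and at 4, 8, 12, 16, 20 and 24 h, each culture time as the mean of Th0, Th1 and Th2. The ribosome biogenesis and proteasome lists level off from 12 h, and the DNA replication list is at 0.95 at 24 h after a minimum of -0.75 at 8 h. The mitosis list has its minimum of -2.38 at 12 h, while the plotted lists of other cells are lower at 24 h than at 12 h.

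Regulators of the G1 phase moved in both directions. Of 20 listed cyclins, kinases and E2F factors 19 were tested, 6 rose, 4 fell and the median was 0.56. The share that rose was 31.6%, beside 12.7% of all genes, and the share that fell 21.1%, near the 17.4% of all genes. Ccnd2, cyclin D2, went from 70.6 and 68.2 RPKM to 237, 238 and 212, and Tfdp1, the partner of E2F factors, from 35.04 and 38.6 to 130, 146 and 129 (1.86 ± 0.26, limma adjusted p = 1.44e-05). E2f2 and E2f8 fell, E2f2 from 38.8 and 42.9 RPKM to 5.56, 5.97 and 4.73 and E2f8 from 20.9 and 21.4 to 3.59, 3.71 and 3.61. Both were lower still at 12 h, E2f2 at 3.16, 2.98 and 2.24 RPKM and E2f8 at 0.74, 0.651 and 0.637. The part of other spleen cells in their resting levels was not tested. Of 10 listed kinase inhibitors and pocket proteins 7 were tested, 5 fell and 1 rose, with a median of -1.55. Cdkn1b, the p27 inhibitor of quiescent T cells, was at 97.4 and 93.2 RPKM at rest and at 21.3, 15.2 and 11.9 at 24 h (-2.57 ± 0.46, limma adjusted p = 1.26e-04), and Cdkn2d, p19, went from 54.5 and 52.9 to 6.95, 8.11 and 5.66. Cdkn1a, p21, was the one that rose, from 1.201 and 2.37 RPKM to 14.6, 17.8 and 11.5.

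Promoter windows were read for letters that factors of growth and of the cell cycle are known to bind, as a description with no test. RefSeq windows of GRCm38.p6, from 250 bases before to 50 after each start, were matched by symbol for 8303 of the 10897 genes tested, with 10564 windows. Both strands were searched. The E2F letters TTTCCCGC or TTTGGCGC stood in 3.10% of all windows, in 3.94% of those of genes that rose, 1.25% of those that fell and 25.5% of the 51 of the DNA replication list. The E-box CACGTG, a letter string of Myc and Max, stood in 10.2% of all windows, 13.2% of those of genes that rose and 20.3% of the 69 of ribosome biogenesis. It was not particular to that list, with 24.0% of the 50 windows of translation factors, while the proteasome list had 3.57% of 28. The letters TTTGAA of the CHR element of mitotic genes stood in 12.3% of all windows and 67.9% of the 56 of the mitosis list. The SRE letters TCACCCCAC of sterol-regulated genes stood in 0.568% of all windows and in 1 of the 34 of the cholesterol list, too few to compare. None of these strings contains another. Shown are the windows of the 3 replication genes with the largest rise that hold E2F letters, of the 2 ribosome biogenesis genes with the largest rise that hold CACGTG and of 2 mitosis genes that hold TTTGAA and rose after 12 h, the last chosen after the data were seen. Capitals mark only the matches of the motif for which a window is shown, and each line runs 5′ to 3′ on the strand of the gene. Mcm3 is at chr1:20820263-20820562 on the minus strand, Mcm5 at chr8:75109259-75109558 on the plus strand and Rfc3, of the clamp loader, at chr5:151651159-151651458 on the minus strand. Mybbp1a, a nucleolar Myb-binding protein, is at chr11:72441077-72441376 on the plus strand and Pno1, of the small ribosomal subunit's assembly, at chr11:17211540-17211839 on the minus strand. Cdk1 is at chr10:69352863-69353162 on the minus strand and Ncapg, of the condensin complex, at chr5:45669675-45669974 on the plus strand.
Mcm3: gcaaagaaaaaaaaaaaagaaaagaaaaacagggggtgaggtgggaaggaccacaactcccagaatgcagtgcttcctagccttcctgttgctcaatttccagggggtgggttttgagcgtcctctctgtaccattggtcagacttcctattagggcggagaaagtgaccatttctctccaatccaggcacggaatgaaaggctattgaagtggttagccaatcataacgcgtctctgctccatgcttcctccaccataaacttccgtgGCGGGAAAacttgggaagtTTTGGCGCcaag
Mcm5: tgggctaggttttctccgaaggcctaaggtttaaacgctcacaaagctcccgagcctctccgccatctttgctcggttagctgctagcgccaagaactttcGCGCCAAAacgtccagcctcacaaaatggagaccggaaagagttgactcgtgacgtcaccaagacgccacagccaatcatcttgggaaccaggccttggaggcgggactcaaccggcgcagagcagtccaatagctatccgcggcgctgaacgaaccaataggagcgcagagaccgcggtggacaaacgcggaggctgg
Rfc3: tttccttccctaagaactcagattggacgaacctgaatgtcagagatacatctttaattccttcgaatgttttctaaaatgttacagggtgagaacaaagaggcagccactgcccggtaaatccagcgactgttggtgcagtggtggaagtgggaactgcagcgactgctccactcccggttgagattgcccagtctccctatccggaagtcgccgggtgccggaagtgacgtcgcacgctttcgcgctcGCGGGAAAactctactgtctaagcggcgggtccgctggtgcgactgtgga
Mybbp1a: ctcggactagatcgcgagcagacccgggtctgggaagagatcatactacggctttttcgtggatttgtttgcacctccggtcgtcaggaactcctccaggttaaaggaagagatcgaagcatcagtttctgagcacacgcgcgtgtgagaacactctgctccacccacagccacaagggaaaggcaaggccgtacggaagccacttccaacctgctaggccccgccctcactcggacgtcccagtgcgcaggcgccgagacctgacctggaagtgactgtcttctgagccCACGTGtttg
Pno1: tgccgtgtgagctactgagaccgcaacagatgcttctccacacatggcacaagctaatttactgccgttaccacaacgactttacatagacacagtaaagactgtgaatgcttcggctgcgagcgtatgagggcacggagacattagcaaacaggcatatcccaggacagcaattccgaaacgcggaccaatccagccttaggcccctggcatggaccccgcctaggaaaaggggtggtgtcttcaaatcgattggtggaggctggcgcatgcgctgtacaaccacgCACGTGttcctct
Cdk1: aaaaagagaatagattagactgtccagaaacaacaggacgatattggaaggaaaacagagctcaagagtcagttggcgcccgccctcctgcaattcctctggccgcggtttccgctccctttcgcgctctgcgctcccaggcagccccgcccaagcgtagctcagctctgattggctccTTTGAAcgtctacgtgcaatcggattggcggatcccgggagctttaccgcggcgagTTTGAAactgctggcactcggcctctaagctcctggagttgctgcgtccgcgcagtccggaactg
Ncapg: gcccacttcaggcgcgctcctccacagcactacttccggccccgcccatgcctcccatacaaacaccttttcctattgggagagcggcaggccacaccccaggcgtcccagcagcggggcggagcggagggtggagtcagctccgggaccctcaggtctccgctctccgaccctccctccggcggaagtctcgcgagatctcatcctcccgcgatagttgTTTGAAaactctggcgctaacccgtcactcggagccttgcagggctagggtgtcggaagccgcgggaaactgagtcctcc

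The genes behind these windows had these levels. Rfc3 was at 13.7 and 11.8 RPKM at rest and at 34.0, 44.1 and 47.1 at 24 h, a log2 change of 1.66. Mybbp1a went from 72.6 and 67.3 to 334, 366 and 281 RPKM and Pno1 from 20 and 18.01 to 84.8, 81.6 and 102, log2 changes of 2.21 and 2.20. Ncapg was at 16.9 and 15.3 RPKM at rest and at 10.5, 11.6 and 22.4 at 24 h, and rose by 2.68 between 12 h and 24 h. The windows of Mcm3 and Cdk1 hold 2 matches each of the motif they are shown for and the other windows 1. Letters of another motif are not marked: the Ncapg window also holds E2F letters and the Pno1 window CHR letters, both on the other strand. A match says only that the letters are there.

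Most of the tested genes of the resting state fell. Of 51 listed genes of naive and quiescent T cells 50 were tested, 29 fell and 1 rose, beside the 17.4% and 12.7% of all genes, with a median of -1.38. Klf2, the factor that keeps T cells quiescent and recirculating, was at 158 and 185 RPKM at rest and at 24.9, 16.3 and 9.67 at 24 h (-3.39 ± 0.54, limma adjusted p = 4.78e-05). Tsc22d3, GILZ, went from 154 and 161 RPKM to 9.15, 5.74 and 4.69, and Txnip, which limits glucose uptake, from 461 and 490 to 31.6, 24.1 and 18.7. For all these genes Th0 was the highest culture and Th2 the lowest. Foxo1, which drives Klf2 and Il7r, fell from 54.8 and 56.9 RPKM to 22.3, 21.2 and 20.6, and Btg1, an antiproliferative factor, from 252 and 248 to 107, 104 and 68.1. Tcf7 and Lef1, the factors of T cell identity, were at 541 and 551 and at 98.5 and 107 RPKM at rest and at 339, 301 and 236 and at 60.1, 52.1 and 51.9 at 24 h. Their log2 changes of -0.92 and -0.90 were under 2-fold, and passed it under quantile normalization (-1.11 for both) and when rescaled (-1.055 and -1.04), and for Tcf7 also without Th0 (-1.03). Slfn2, whose loss ends T cell quiescence in mice, was the list member that rose, from 180 and 163 RPKM to 488.5, 392.2 and 606.6.

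Homing genes fell in part. Of 29 listed 28 were tested, 11 fell, 2 rose and the median was -0.88, and under quantile normalization 4 rose. S1pr1, the receptor for exit from lymph nodes, went from 132 and 135 RPKM to 17.0, 11.2 and 8.94 (-3.43 ± 0.57, limma adjusted p = 7.04e-05), and Cxcr4, a chemokine receptor, from 94.6 and 102 to 8.80, 4.61 and 6.37. Ccr7, the chemokine receptor for lymph node entry, rose from 125 and 131 RPKM to 384, 379 and 244. Of the 8 Gimap GTPases, survival proteins of resting lymphocytes, 5 fell and none rose, with a median of -1.38, among them Gimap7, from 55.1 and 52.7 RPKM to 13.95, 12 and 10.7. Of 37 genes of the T cell receptor complex and its signalling 8 fell and none rose, with a median of -0.42. The share that fell, 21.6%, was near the 17.4% of all genes. Sit1 and Themis, adaptors of receptor signalling, fell by 2.78 and 2.07 on the log2 scale.

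The interferon response list had a median of -1.36, with 21 of 46 tested of 50 listed genes lower and 2 higher by the test, while its summed RPKM was 2639 and 2715 at rest and 4381, 3733 and 1106 in Th0, Th1 and Th2. The sum was thus above rest in 2 cultures and below it in Th2. Rsad2, the antiviral protein viperin, fell from 42.0 and 41.0 RPKM to 0.264, 0.285 and 0.0414 (-5.94 ± 0.41, limma adjusted p = 3.22e-09), and Isg20, an antiviral exonuclease, from 74.2 and 79.5 to 4.70, 5.45 and 2.83. Rsad2 was at 14.6, 13.7 and 15.2 RPKM at 4 h and at 1.85, 1.895 and 1.05 at 12 h. Whether the resting transcripts of Rsad2 and Isg20 came from other spleen cells was not tested. Gbp2, a guanylate binding protein induced by IFN-γ, was at 47.9 and 45.3 RPKM at rest and at 793, 647 and 94.7 at 24 h (2.96 ± 1.22, limma adjusted p = 0.0423). All cultures were above rest, and the call was lost without Th0 (2.40), without Th1 (2.54), without resting replicate 1 (2.997) or 2 (2.92), with no filter, under quantile normalization and when rescaled. Socs1, which restrains cytokine receptors, rose from 15.2 and 16.8 RPKM to 53.3, 47.4 and 58.9.

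Of the lists described, the interferon list was the most spread between the cultures. Over its 46 genes the median range between the 3 cultures was 1.58 on the log2 scale and 32 of them were at least 2-fold apart, beside a median range of 0.32 over all genes tested and 443 of 10897 that far apart. Taken culture by culture, the median change from rest was -0.82 for Th0, -1.06 for Th1 and -2.0 for Th2. The cytokine list had a median range of 0.88 with 12 of 30 genes at least 2-fold apart, and the ribosome biogenesis list 0.25 with none. With 1 library a condition there is no test of these differences. Counting error alone was small: Ifng was 5.87 times as high in Th1 as in Th2 (95% interval 5.60 to 6.15 from the recovered reads) and Lta 5.48 times (5.18 to 5.80). Il2 was 1.91 times as high in Th2 as in Th0 (1.83 to 2.00), and Gzmb, granzyme B, 2.07 times as high in Th1 as in Th0 (2.00 to 2.14). Irf8, an interferon regulatory factor that rose at 24 h, was at 249, 345 and 52.6 RPKM in Th0, Th1 and Th2 against 24.7 and 23.2 at rest. The Th2 cultures contained an antibody to IFN-γ, and its part in these values was not tested.

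**Figure D5:**
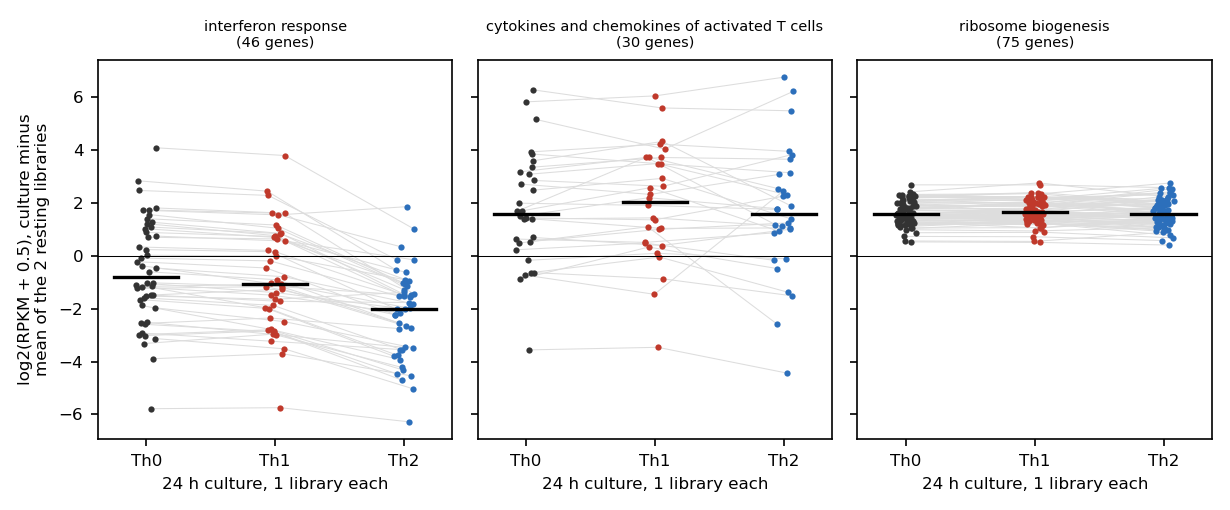
Log2 change of each tested gene in each 24 h culture from the mean of the 2 resting libraries, on RPKM + 0.5, for 3 lists; a grey line joins a gene's 3 values and the black bar is the median. The interferon list drops from -0.82 in Th0 and -1.06 in Th1 to -2.0 in Th2, while the ribosome biogenesis list lies between 1.56 and 1.64 in the 3 cultures.

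The counts of the remaining lists stand beside the 12.7% of all genes that rose and the 17.4% that fell. Of 25 listed survival and death genes 21 were tested, 3 rose, 3 fell and the median was 0.08, which changed sign over the scalings. Bcl2l1, the survival factor Bcl-xL, rose from 29.96 and 31.3 RPKM to 175, 176 and 219 (2.61 ± 0.32, limma adjusted p = 3.31e-06), Pmaip1, the death factor Noxa, fell by 1.46, and Bcl2 was at 23.5 and 21.6 RPKM at rest and at 18.4, 15.03 and 12.4 at 24 h (limma adjusted p = 0.325). Of 14 listed granule genes 10 were tested, 3 rose, 2 fell and the median was 0.13, which also changed sign. None fell without Th0 or without resting replicate 1 or 2. Gzmk, granzyme K, which fell, also lost its call without Th1 (-1.16), with a pseudocount of 1 and under quantile normalization. Gzmb rose from 10.8 and 11.1 RPKM to 145, 301 and 150, and Gzma, granzyme A, went from 68.0 and 66.8 to 11.7, 22.7 and 42.7, a fall that was lost without Th0 (-1.10) or without resting replicate 1 (-1.55) or 2 (-1.57). Of 28 listed mTORC1 and AMPK genes 26 were tested, none rose, 3 fell and the median was 0.05, which changed sign too. Of 29 autophagy genes 7 fell and none rose, with a median of -0.43, and Wipi1, of the autophagosome, fell by 3.29 on the log2 scale. Wipi1 was at 4.37 and 5.30 RPKM at rest, and the part of other spleen cells in that level was not tested. Ftl1 and Fth1, the ferritin chains, were among the most abundant genes that fell, Fth1 from 834 and 887 RPKM to 273, 266 and 229, at times when the red cell and macrophage lists above fell as well. That part was not tested, and both ferritin genes have processed copies.

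A few of the largest falls were of genes on no list. Nxpe2 went from 60.4 and 56.6 RPKM to 0.0443, 0.0859 and 0.116, Tmcc2 from 69.2 and 63.4 to 0.578, 0.548 and 0.429, and Hebp1, a haem-binding protein, from 54.0 and 52.5 to 0.211, 0.136 and 0.147, the last from 6, 4 and 4 reads. Gm20481, a predicted gene, was at 46.5 and 52.4 RPKM at rest and had 3, 2 and 2 reads at 24 h. Nxpe2, Tmcc2 and Hebp1 also fell between 12 h and 24 h (-1.65, -1.599 and -1.39), a contrast in which 26 of the 35 red cell genes fell. Whether their transcripts came from those cells was not tested.

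Against 4 h, when the cells had received the same signals for a shorter time, 1418 genes were higher at 24 h (13%) and 1439 lower (13.2%). That contrast shares the 24 h libraries with the one against rest and has no resting library in it. As deposited 49.6% of its called genes rose, and 39.0% when the libraries were rescaled without the genes of other cells, which moved the median of all genes from -0.01 to -0.14. Ribosome biogenesis rose in 60 of 75 genes, with a median of 1.32, DNA replication in 42 of 52 (1.54), one-carbon and nucleotide synthesis in 29 of 40 (1.59) and chaperones in 23 of 33 (1.37). Il2 rose by a further 2.92 on the log2 scale and Il2ra by 1.65, while Irf4, up 0.94, was under 2-fold. Interferon genes fell in 30 of 46 and none rose, and genes of naive cells fell in 29 of 50. Immediate-early and activation factors fell in 13 of 42 and rose in 3. The mitosis list had 8 genes up and 8 down, with a median of 0.21, and these counts were 14 and 5 without Th0 at 24 h, and 4 rose without Th2 at 24 h. Of the 1387 genes that had risen by 24 h outside the lists of other cells, 179 passed the midpoint of their change by 4 h, 755 between 4 h and 8 h and 299 between 8 h and 12 h, and of the 1721 that had fallen 591, 568 and 436 did so in these intervals.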

How the data were processed

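RNA sequencing was carried out by the authors on CD4+ T cells, and the deposited table holds RPKM values per gene symbol in 24 libraries, with 22009 named entries, of which 4073 were at 0 in every library, and 1 unnamed entry at 0. The submitters' processing notes name BWA and GRCm38, and no counting tool is given in the sources used here. The files hold no read counts. For 5967 of 16096 genes with at least 6 values above 0 (37.1%), all values lay within 0.02 of whole multiples of 1 step, and of 1562 such genes with 1 transcript, 944 pointed to 1 total of mapped reads within 0.1%. Read numbers are given only for stepped genes. Intervals are exact Poisson or conditional binomial 95% intervals and cover counting error only, and floors use 3 reads.

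The fit used limma 3.58.1 (R 4.3.3), with RPKM plus 0.5 taken to log2, an intensity trend, the time point as a factor with 7 levels over 20 libraries, and Benjamini-Hochberg adjustment over all 10897 genes tested, those with a mean of 1 RPKM or more. The call needed an adjusted p under 0.05 and 2-fold, the threshold of the study's microarrays. The 24 h libraries were compared with the resting and the 4 h libraries, and with the 12 h libraries in a contrast added after the data were seen. The 4 actinomycin libraries were not used here. The script was tested on simulated data. Lists are described by counts, medians and summed RPKM, with no set test. The members and lists were chosen with earlier results of these data known.

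Genes were named by rule: the 8 largest rises and falls, the 2 largest in each direction in each list, 35 fixed genes, the 5 called genes most spread between cultures, the 2 highest of each other-cell list, and the 5 most abundant in each direction. This gave 160 genes, of which a part is described. Some genes are not reported here. Promoter windows came from RefSeq. Alternatives were a pseudocount of 0.1 or 1, a filter at 5 RPKM or none, scaling by quantiles, by the upper quartile or by the median of ratios, rescaling without the genes of other cells, no trend, the libraries compared alone, and leaving out each library compared. Python 3.11.15 with numpy 2.4.6, pandas 2.3.3, scipy 1.17.1 and matplotlib 3.10.9 was used.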

Additional observations from a re-analysis of the deposited data

Results flagged for a closer look

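At 24 h, 9 genes were at least 2-fold above both resting libraries in 1 culture and at least 2-fold below both in another, on the log2(RPKM + 0.5) scale. The difference between the cultures was not tested, since each condition had 1 library. In 7 of them, GTPases and surface proteins that interferon is known to induce, Th0 and Th1 lay above rest and Th2 below. Irgm1 was at 203.7 and 177.7 RPKM in Th0 and Th1 and at 20.99 in Th2, with 57.6 and 58.6 at rest. Gbp4 was at 131.6, 111.4 and 23.65 RPKM in Th0, Th1 and Th2, with 49.5 and 50.0 at rest, and Irgm2 at 41.71, 30.38 and 6.986, with 18.01 and 17.6 at rest.

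Tgtp1 was at 193.1, 134.8 and 29.2 RPKM and Tgtp2 at 138, 102.9 and 18.95, with 63.2 and 68.0 and with 54.8 and 59.9 at rest, and the split between these near-identical genes is uncertain. Ly6a, the stem cell antigen Sca-1, was at 304.4, 397.1 and 32.08 RPKM, with 101.2 and 115.5 at rest, and Ly6i at 4.839, 6.46 and 0.5008, with 2.87 and 2.14 at rest. The opposite order was found for 2 genes. Csf1, the macrophage growth factor, was at 2.324 and 1.208 RPKM in Th0 and Th1 and at 25.04 in Th2, with 3.96 and 4.46 at rest, and Chil3, a chitinase-like protein, at 0.04844, 0 and 5.365, with 1.25 and 0.80 at rest. Chil3 is on the list of granulocyte genes that was set aside above.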

How the results depend on the processing

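Refitting the 160 named genes under the alternatives gave 2381 values, of which 2302 kept the direction and the side of the threshold, 58 lost a call, 16 gained one and 5 turned the direction. Of the 145 called, 128 kept the call in every alternative. The 17 that did not include Bmf, D630039A03Rik, Egfl7, Gbp2, Gimap4, Gzma, Gzmk, H2-D1, H6pd, Hprt, Hsp90ab1, Hspa8, Ltb, Pros1, Ptma and Tkt. The turns were of Cd69, whose log2 change of 0.01 as deposited was -0.259 under quantile normalization, -0.126 when rescaled and between -0.021 and 0.055 when 1 library was left out, and of Tagln, at -0.40 as deposited and 0.177 with quantiles equalized. What causes these turns was not tested.

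The number of genes changed against rest was 3280 and between 2393 and 3888 over the alternatives, and 3137 to 3394 when 1 library was left out. With a mean of 5 RPKM, which tests fewer genes, 1147 fell against rest, and 339 changed and 181 rose against 12 h, where 550 and 340 had. A low resting RPKM limits what a fold can show, and genes with no recovered reads have no counting interval. With 3 cultures of different skewing as the libraries of each culture time point, genes that respond to skewing have large errors, Ifng among them.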
